A study of Arabidopsis thaliana with 8 samples.

Results

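The TOPLESS family of Arabidopsis thaliana comprises 5 genes, TOPLESS (TPL, AT1G15750) and its relatives TPR1 (AT1G80490), TPR2 (AT3G16830), TPR3 (AT5G27030) and TPR4 (AT3G15880). They were taken by gene identifier, without regard to their values, and all 5 had a row of their own among the 33201 rows of the authors' deposited table. Each of the 5 had enough signal to be tested by the authors. The RNA came from root cells of Col-0 seedlings grown for 5 days, which were protoplasted and sorted for a WOX5::GFP reporter, which labels the quiescent center (QC), a small group of rarely dividing cells that keeps the adjoining root stem cells undifferentiated. Wild type and the pan mutant, named for the bZIP transcription factor PERIANTHIA (PAN), gave 4 libraries each, all labelled biological replicates and all carrying the same reporter. The labels name no allele of pan. The table gives 1 pooled level per genotype in FPKM, a count of fragments scaled both to transcript length and to sequencing depth, so no spread between libraries can be shown. The authors' q-value, a p-value adjusted over all tested genes, is the only measure of replicate error, and a gene is called here at q under 0.05.

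TOPLESS proteins are transcriptional corepressors of the Groucho type. They do not bind DNA themselves: an N-terminal domain holds the short EAR motif of repressors such as Aux/IAA proteins, NINJA or WUSCHEL-type homeodomain factors, and WD repeats form the rest of the protein. Histone deacetylases such as HDA19 work with them to silence the bound gene. The dominant tpl-1 allele of TPL can turn the embryonic shoot pole into a root. In the root tip of Arabidopsis, WOX5 is known to recruit TOPLESS proteins to repress a Dof factor gene that promotes differentiation of columella stem cells.

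The coding sequences of the 5 genes start alike, and they are shown because they let the reader see how far the members can be told apart in short reads. The 60 bases from the start codon were read from the RefSeq annotation of TAIR10.1, on the coding strand, and capitals mark bases that differ from TPL.
TPL: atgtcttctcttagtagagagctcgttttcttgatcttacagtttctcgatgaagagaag
TPR1: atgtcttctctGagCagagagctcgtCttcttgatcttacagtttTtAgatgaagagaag
TPR4: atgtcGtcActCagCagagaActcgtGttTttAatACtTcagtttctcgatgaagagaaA
TPR2: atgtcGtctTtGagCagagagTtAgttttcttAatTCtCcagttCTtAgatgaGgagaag
TPR3: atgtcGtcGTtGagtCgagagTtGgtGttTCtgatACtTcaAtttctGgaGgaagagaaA
In these 60 bases TPR1 differed from TPL at 5 positions, TPR4 at 12, TPR2 at 14 and TPR3 at 17. The first coding exon was 80 bases long in all 5 genes.

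Over the whole coding sequence the family held 1 close pair. TPL and TPR1 were identical at 86.6% of 3363 aligned bases. TPR2 and TPR3 came next, at 69.5%, ahead of TPL with TPR4 at 67.9%, and the lowest value was 62.5% for TPR2 with TPR4. The longest run of identical bases between transcripts was 56 for TPL and TPR1 and at most 26 for any other pair. Of all stretches of 50 bases within exons, 5 of 3087 in TPL (0.162%) and 5 of 2751 in TPR1 (0.182%) occurred a second time in the genome. None of 2684 in TPR2, 2522 in TPR3 or 2652 in TPR4 did. Stretches across exon junctions were not examined, and the authors' read length and permitted mismatches are not stated.

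TPR3 was the only member of the family whose change between genotypes was called. In the authors' deposited table TPR3 had 16.1 FPKM in wild type, but 2.84 in pan. Its pooled level in pan was thus 17.7% of that in wild type, a 5.65-fold fall (log2 change -2.50, p = 5e-05, q = 0.00116 in the authors' deposited table). That p is the smallest in the table and is shared by 853 tested genes, so the fall of TPR3 cannot be ranked against theirs. In RNA from many sorted cells, fewer cells of a type and less RNA per cell cannot be told apart.

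The other 4 members had somewhat higher pooled levels in pan, and none of them was called. TPL, the founding member, had 26.1 FPKM in wild type against 33.7 in pan (log2 change 0.37, q = 0.534, in the authors' deposited table). Its closest relative TPR1 stood at 22.3 and 35.1 FPKM (log2 change 0.66, p = 0.0665, q = 0.194, in the authors' deposited table). For TPR4, known also as WUS-interacting protein 2, the authors' deposited table gave 13.9 and 22.01 FPKM (log2 change 0.67, p = 0.0737, q = 0.208). TPR2, the nearest relative of TPR3 by coding sequence, had 14.5 and 18.7 FPKM (log2 change 0.36, q = 0.539, in the authors' deposited table). The pooled levels of these 4 in pan lay between 1.28 and 1.59 times those in wild type, and the direction of these differences is not supported by the authors' test. Whether TPR3 differed from the other members in its change could not be tested, because that needs values per library.

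**Figure D1:**
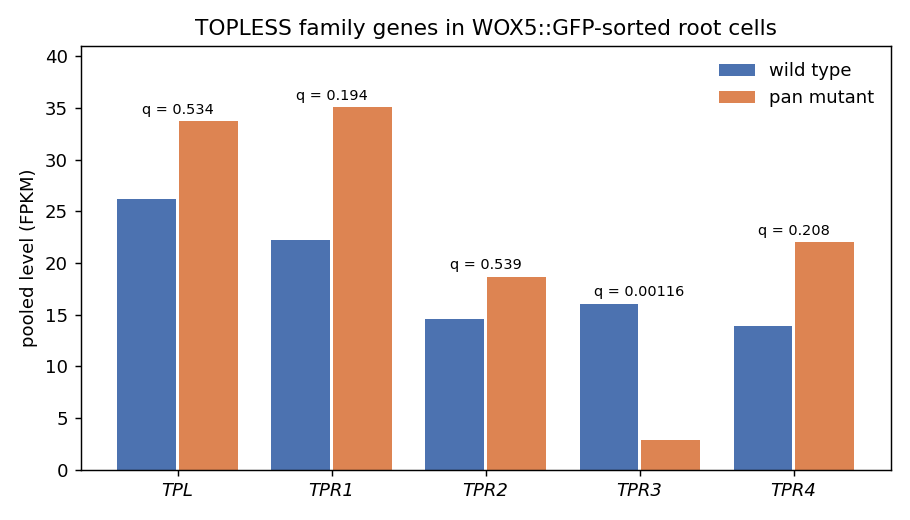
Pooled level of the 5 family members in wild type (blue) and the pan mutant (orange), in FPKM, with the authors' q-value above each pair of bars; pooled values have no error bars. TPR3 is at 2.84 FPKM in pan, below all other bars, while the other 4 genes lie between 18.7 and 35.1 FPKM in pan.

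Being called is common in these data, and the count in the family is close to that background. By the authors' Cuffdiff test 1 of the 5 members was called lower and 0 were called higher, at q under 0.05 and also at an unadjusted p under 0.05. Over the 19789 tested genes 17.8% were called, 9.83% lower and 8.01% higher in pan. Among the 3079 tested genes whose wild type level lay within the range of the members, 22.1% were called, 14.4% lower and 7.66% higher. A log2 change as low as that of TPR3 or lower occurred in 173 of those 3079 genes (5.62%). Of the 19590 tested genes whose change is finite, 7.35% had a lower log2 change than TPR3.

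At these levels the authors' test called only larger rises than those of the other 4 members. The 236 genes of like wild type level that were called higher had log2 changes from 0.91 to 3.69, with a median of 1.61. The highest value in the family was the 0.67 of TPR4, and none of the 236 called genes had a change that small. A missed threshold for TPL, TPR1, TPR2 and TPR4 therefore does not show that they were equal in both genotypes. The median log2 change was 0.37 over the 5 members and -0.17 over those 19590 genes. All 4 members that were not called lay above that general median, between the 66.0 and the 74.6 percentile of those changes.

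**Figure D2:**
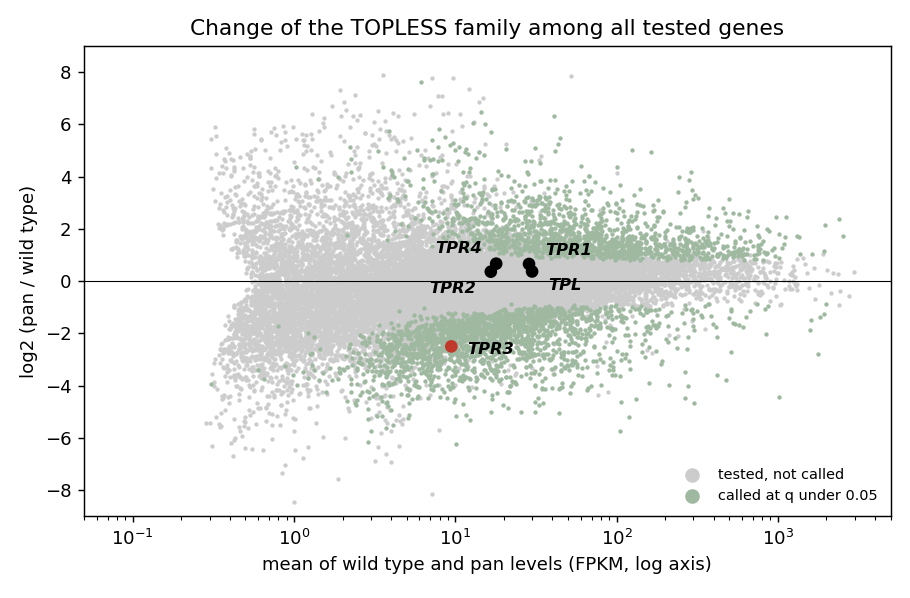
Log2 change (pan over wild type) against the mean of both levels in FPKM (log axis) for the 19590 tested genes whose change is finite, with called genes in green and the family in black (not called) or red (called). TPR3, at a log2 change of -2.50, lies among many called genes, and the other 4 members lie in the band of genes that were not called.

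In the order of the family by level, TPR3 stood in the third place in wild type and in the last in pan. Since FPKM is scaled to length, levels of different genes can be set side by side. In wild type the order was TPL (26.1 FPKM), TPR1 (22.3), TPR3 (16.1), TPR2 (14.5) and TPR4 (13.9), so the highest was 1.89 times the lowest. In pan it was TPR1 (35.1 FPKM), TPL (33.7), TPR4 (22.01), TPR2 (18.7) and TPR3 (2.84), and the highest was 12.3 times the lowest. Which neighbours in either order differ beyond the spread between libraries cannot be said from pooled values. TPL lay at the 75.6 percentile of all genes above 0 FPKM in wild type and TPR4 at the 62.9, so all 5 were moderately abundant there. In pan TPR3 was at the 52.7 percentile and the other 4 between the 76.4 and the 84.6. The 2 sets of percentiles rest on 24226 and 30036 genes, respectively, since more genes are listed above 0 in pan.

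The summed level of the family, which has no test, was not lower in pan. The 5 FPKM values summed to 92.9 for wild type and to 112 for pan, or 1.21 times as much. TPR3 made up 17.3% of that sum in wild type and 2.53% in pan. TPL held 28.2% and 30.04%, TPR1 24.0% and 31.2%, TPR4 14.9% and 19.6%, and TPR2 15.7% and 16.6%. Without TPR3 the sums were 76.8 and 109 FPKM, so the other 4 genes carried nearly the whole family signal in pan.

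For 3 of the 5 genes the table's locus also holds a gene on the opposite strand, and whether the counting used strand is not stated. The TPR3 locus (chromosome 5, 9508098 to 9515407, TAIR10) is shared with AT5G27020, whose end overlaps that of TPR3 by 161 bases in RefSeq. The authors' deposited table listed AT5G27020 at 0 for wild type, at 0.0371 FPKM for pan, and with no test, so the neighbour was near 0 in both genotypes. RefSeq also places a noncoding gene, AT5G04345, over 154 bases at the start of TPR3, and it was not analysed here. The TPL locus (chromosome 1, 5410908 to 5421033) is shared with the leucine-rich repeat gene AT1G15740, which overlaps TPL by 103 bases. In the authors' deposited table AT1G15740 had 13.5 FPKM in wild type against 3.25 in pan (log2 change -2.05, q = 0.352, not called). The TPR4 locus (chromosome 3, 5362888 to 5372293) holds the fatty acid desaturase family gene AT3G15870, with an overlap of 464 bases and levels of 0.624 and 0.725 FPKM in the authors' deposited table. TPR1 (chromosome 1, 30260903 to 30267038) and TPR2 (chromosome 3, 5731534 to 5737772) had their loci to themselves. Gene models in RefSeq were alike, with 22 to 27 exons and coding lengths from 3363 to 3414 bases.

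**Figure D3:**
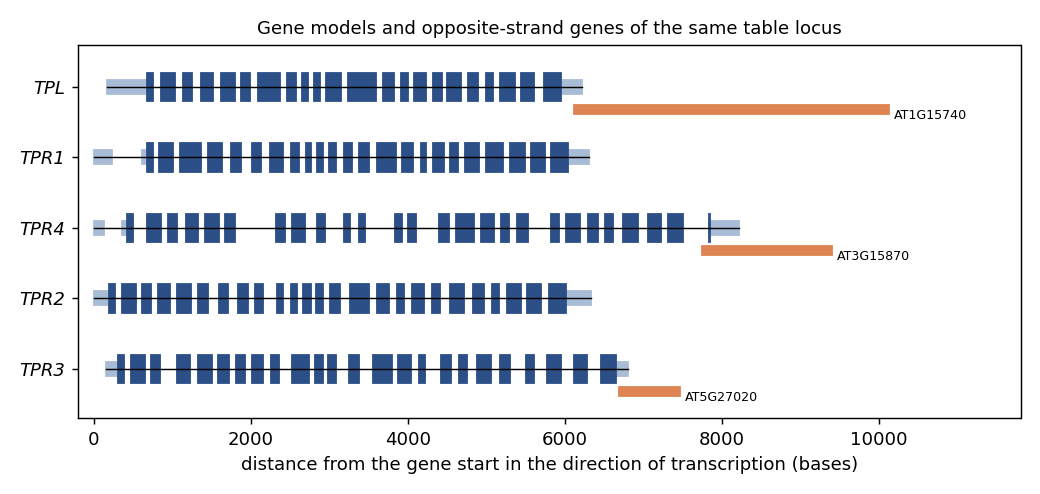
Gene models of the 5 members from RefSeq, by distance in bases from the gene start in the direction of transcription; dark boxes are coding exons, light boxes other exon sequence, and orange bars the opposite-strand gene that the table places in the same locus. The overlaps of TPL, TPR4 and TPR3 with these genes, of 103, 464 and 161 bases, all lie at the 3' end of the member.

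PAN belongs to the TGA group of bZIP factors, a group known to bind DNA at TGACG, so the promoters were searched for those 5 letters on both strands. In the window from 250 bases before to 50 after the RefSeq gene start, TPR1 had 1 match and TPL, TPR2, TPR3 and TPR4 had 0. Of 27443 promoters of protein-coding genes in that window 23.1% held at least 1 match. The transcript with the longest coding part begins 158 bases after the RefSeq gene start in TPR3 and 174 bases after it in TPL. A window reaching 1000 bases upstream was added after the data were seen. In it TPR1 and TPR2 had 3 matches each, TPR4 2, TPR3 1 and TPL 0, and 56.7% of all promoters held at least 1. Of the 3 in TPR1, those at positions -863 and -860 overlap on opposite strands as 1 palindrome, TGACGTCA, counted on each strand. The match nearest to the start of TPR1 began at position -51 relative to the gene start, on the opposite strand, and the only one of TPR3 at position -315. TPR2 had matches at positions -494, -453 and -365, and only the last is printed, which shares the longest run of bases with the TPR3 match. TPR3 is shown as the called member and TPR2 as its nearest relative. The sequences are in TAIR10.1 and in the direction of the gene, with the match in capitals.
TPR3, chr5:9515868-9515888, minus strand: attatataTGACGtaacctgc
TPR2, chr3:5731146-5731166, plus strand: aatccgcgTGACGtaacccac
TPR1, chr1:30267164-30267184, minus strand: ccgttatcCGTCAccttcgca
The TPR3 and TPR2 matches shared a run of 10 bases, TGACGTAACC, which 17 of the 27443 promoters (0.0619%) hold on either strand. Those 17 include TPR2 and TPR3 by construction, since the run was taken from them. Of the 17 genes 9 were tested, with 2 called higher and 1, TPR3, called lower. Over all tested genes 17.8% were called, so this small count says nothing about the run. This run was picked after the sequences were seen, TPR2 itself was not called, and a match is a description of letters and not of a site in use.

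TPL and TPR1, the close pair by coding sequence, also shared promoter sequence. A run of 19 bases was identical in their 250 upstream bases, starting at position -189 in TPL and -197 in TPR1, whereas no other pair of members shared more than 10. The surrounding 69 bases are shown with the shared run in capitals.
TPL, chr1:5421174-5421242, minus strand: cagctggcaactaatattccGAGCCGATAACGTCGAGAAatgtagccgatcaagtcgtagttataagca
TPR1, chr1:30267274-30267342, minus strand: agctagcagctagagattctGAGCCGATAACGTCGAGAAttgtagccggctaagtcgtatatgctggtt

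The sorted populations differed in more than the family, and these values stand beside the fall of TPR3. PAN itself had 19.996 FPKM in wild type against 0.265 in pan (log2 change -6.24, q = 0.0386, in the authors' deposited table). The table gives PAN a locus that a neighbouring gene shares. As background, 9.83% of all tested genes were called lower and 8.01% higher. Of 3 QC markers 3 were called lower, and their summed level was 275 FPKM in wild type and 11.5 in pan. All 5 root cap markers were called lower, with sums of 576 and 208 FPKM. Of 7 epidermis and root hair markers 3 were called higher, with sums of 444 and 1255 FPKM. Of 6 endodermis markers 1 was called higher, with sums of 124 and 286 FPKM. The called gene, CASP1, had 48.4 and 145 FPKM, and only MYB36 was lower in pan (15.9 and 10.4 FPKM, not called). Of 5 stele markers 1 was called higher and 3 lower, with sums of 72.01 and 75.1 FPKM. The stele sum in pan was mostly that of WOL (28.1 and 70.8 FPKM). The other 4 stele markers were lower in pan, and the median log2 change of that list was -3.06. No marker of these lists was at 0 in either genotype. The part of such differences in the fall of TPR3 was not tested.

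Other corepressors and the enzymes that work with TOPLESS showed no call, where 17.8% of all tested genes were called. Of 6 genes of the LEUNIG and SEUSS group, the other Groucho-type corepressors of plants and their adaptors, 0 were called by the authors' Cuffdiff test and 2 had an unadjusted p under 0.05, at a median log2 change of -0.32. LEUNIG (LUG) stood at 37.4 and 19.5 FPKM (log2 change -0.94, q = 0.0541) in the authors' deposited table. Its homolog LUH stood at 39.9 and 70.2 FPKM (log2 change 0.81, q = 0.0904, in the authors' deposited table). Of 3 tested class I histone deacetylases 0 were called by Cuffdiff, and 0 had an unadjusted p under 0.05. HDA19, the deacetylase best known as a TOPLESS partner, had 93.6 and 63.5 FPKM (log2 change -0.56, q = 0.241), and HDA6 33.03 and 27.4 FPKM (log2 change -0.27, q = 0.672), in the authors' deposited table. Of 8 subunits of the Mediator kinase module and of Mediator proteins MED10 and MED21, 0 were called by Cuffdiff and 0 had an unadjusted p under 0.05, with log2 changes from -0.54 to 1.01. The widest changes were those of MED10A (8.68 and 17.4 FPKM, q = 0.337) and MED21 (14.0 and 27.3 FPKM, q = 0.329) in the authors' deposited table. HDA7 was listed at 0 in both genotypes.

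Genes of the Aux/IAA family changed in both directions. These are mostly auxin-labile repressors, most of which bind TOPLESS through an EAR motif, and which of those listed carry it was not examined. Of 24 tested Aux/IAA genes 5 were called lower and 3 higher, with a median log2 change of -0.69. Over all tested genes 9.83% were called lower and 8.01% higher, and the median of the finite changes was -0.17. IAA20, which lacks the degron of typical Aux/IAA proteins, had 148 FPKM in wild type and 17.3 in pan (log2 change -3.09, q = 0.00116, in the authors' deposited table). IAA18 had 8.91 and 1.25 FPKM (log2 change -2.84, q = 0.0198), IAA4 105 and 23.1 FPKM (log2 change -2.19, q = 0.00116) and IAA33 190 and 45.1 FPKM (log2 change -2.08, q = 0.00116) in the authors' deposited table. The fifth that fell was IAA30, and those that rose were IAA14, IAA16 and IAA28; these 4 fall outside the rule for named genes and are named after their values were seen. IAA14 and IAA28 are known for their roles in lateral root formation. The summed level of the 29 Aux/IAA genes was 2027 FPKM in wild type and 2096 in pan.

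Jasmonate repressors reach TOPLESS through the adaptor NINJA, or directly where a JAZ protein has an EAR motif of its own. Of 14 such genes 3 were called higher and 1 lower, where 8.01% and 9.83% of all tested genes were. JAZ2 stood at 363 and 701 FPKM (log2 change 0.95, q = 0.0188) and JAZ3 at 77.7 and 172 FPKM (log2 change 1.15, q = 0.0114) in the authors' deposited table. JAZ4 was listed at 0 for wild type and at 0.857 FPKM for pan (q = 0.00116), and JAZ5 fell from 20.3 to 3.62 FPKM (log2 change -2.49, q = 0.0186), in the authors' deposited table. The adaptor NINJA had 71.8 and 45.1 FPKM and was not called (log2 change -0.67, q = 0.177, in the authors' deposited table). Of 8 tested partners from abscisic acid, brassinosteroid and strigolactone signalling, 1 was called, the brassinosteroid factor BES1, which fell from 107 to 48.7 FPKM (log2 change -1.14, q = 0.0238, in the authors' deposited table).

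Transcription factors with repression motifs of their own gave 3 calls, all lower in pan, where 9.83% of all tested genes were called lower. WOX5, the root stem cell partner of TOPLESS and the source of the reporter's promoter, fell from 205 to 8.27 FPKM (log2 change -4.63, q = 0.00116, in the authors' deposited table). It was 1 of only 2 tested genes among the 8 factors of the WUSCHEL clade. Of 11 tested EAR-type ERF and zinc finger repressors 2 were called. AZF3 fell from 24.2 to 3.40 FPKM (log2 change -2.83, q = 0.0443) and ZAT10 from 81.4 to 36.01 FPKM (log2 change -1.18, q = 0.0451) in the authors' deposited table. Taking every partner and target list together, 88 of 104 distinct genes were tested, and 6 were called higher and 14 lower (22.7% called, against 17.8% over all tested genes).

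Targets listed from studies of TPL, Dof genes of the CDF type and activating ARF genes were lower or were not called. Only PLT1, PLT2 and AT2G34140 are listed as such targets, and the other CDF and ARF genes are not. Over all tested genes 9.83% were called lower. PLT1 and PLT2, root stem cell factors that TPL represses in the apical part of the Arabidopsis embryo, both fell. PLT1 had 170 and 19.9 FPKM (log2 change -3.09, q = 0.00116) and PLT2 81.7 and 8.95 FPKM (log2 change -3.19, q = 0.00116) in the authors' deposited table. Of 5 Dof factor genes of the CDF type 0 were called by Cuffdiff and 2 had an unadjusted p under 0.05, both lower in pan, with a median log2 change of -1.02. The largest change was that of AT2G34140, annotated as a Dof-type zinc finger gene, with 8.55 and 1.96 FPKM (log2 change -2.13, q = 0.0795, in the authors' deposited table). CDF3 had 3.12 and 1.19 FPKM (log2 change -1.39, q = 0.280, in the authors' deposited table). Of 5 activating ARFs, the auxin response factors that Aux/IAA and TOPLESS hold in check, 2 were called lower, and 4 had an unadjusted p under 0.05, all lower in pan. ARF5 (MONOPTEROS), required to form the embryonic root, fell from 181 to 15.2 FPKM (log2 change -3.58, q = 0.00116, in the authors' deposited table). ARF8 fell from 25.1 to 3.999 FPKM (log2 change -2.65, q = 0.00116, in the authors' deposited table). Not called were ARF6 at 15.8 and 7.27 FPKM (q = 0.0512), ARF19 at 25.9 and 13.2 FPKM (q = 0.0582) and ARF7 at 20.9 and 21.1 FPKM (q = 0.986) in the authors' deposited table.

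**Figure D4:**
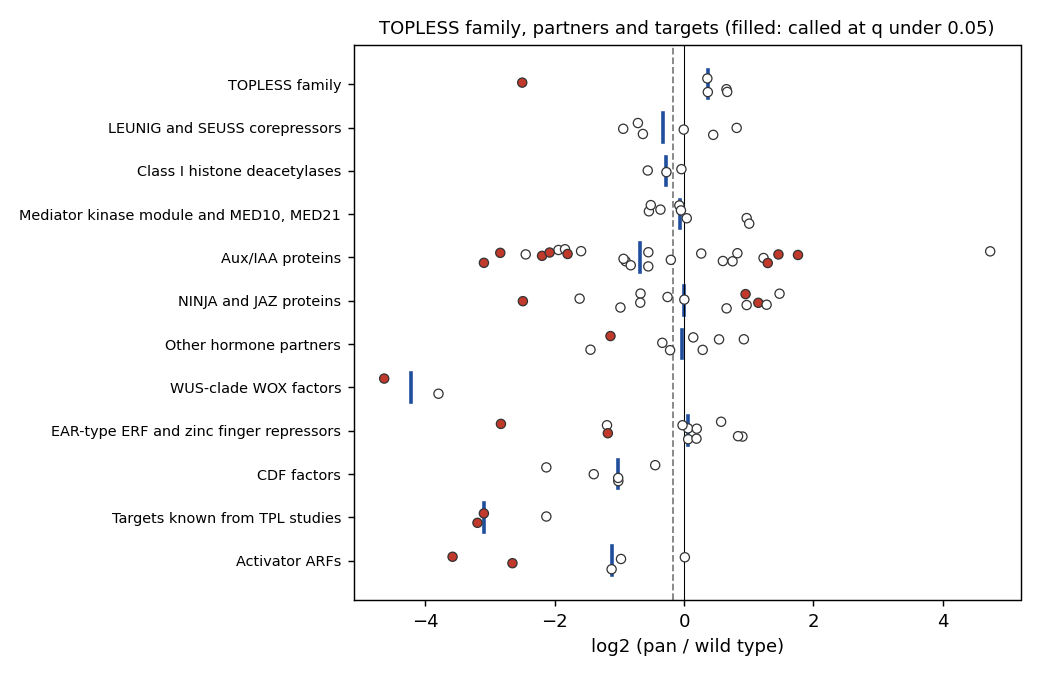
Log2 change (pan over wild type) of each tested gene with a finite change in the family and in the lists of partners and targets; filled points were called at q under 0.05, blue bars are list medians, and the dashed line is the median over all tested genes (-0.17). The family has 1 filled point, TPR3 at -2.50, the lists of LEUNIG and SEUSS corepressors, deacetylases, Mediator and CDF factors have none, and the Aux/IAA list has filled points on both sides of 0.

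Genes with the pooled levels most like each member's were found by distance over the 2 genotypes on the log2(FPKM + 1) scale. They were the potassium transporter gene KUP6 for TPL, AT4G28290 for TPR1, GAUT3 for TPR2, AT2G37750 for TPR3 and the nitrilase gene NIT1 for TPR4, at distances of 0.0217, 0.00776, 0.0155, 0.0466 and 0.0187. With only 2 values per gene such likeness is weak: between 84 genes (for TPR3) and 238 genes (for TPR2) lay within 0.25 of a member. AT2G37750, the nearest to TPR3, stood at 15.9 and 2.96 FPKM and was not called (log2 change -2.43, q = 0.0703, in the authors' deposited table), although its levels were almost those of TPR3.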

How the data were processed

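RNA sequencing data of 8 libraries, 4 of wild type and 4 of pan, were available as a table of the authors' comparison. RNA purified on RNeasy Micro columns was turned into cDNA and amplified by SMARTer low input chemistry, per the labels' protocols. The tools named are Cuffdiff, Cufflinks 2.1.1 and TopHat2 2.0.13, with the TAIR10 genome, per the submitters' processing notes, which give no role or setting here. The authors deposited 1 pooled FPKM per genotype, the log2 of pan over wild type without a pseudocount, a signed test score that was not used, and a p-value and q-value per tested gene. Depth per library is unknown, so no interval for counting error is given. The deposited q-values were recomputed by Benjamini-Hochberg adjustment over 19789 tested genes, with a largest difference of 5.25e-07.

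The planned fallback for pooled values was used: the authors' q-value, with no test of a list. The members and lists were chosen with earlier results of these data known. Named genes are the 5 members, PAN, up to 4 called genes per list with the largest log2 change (otherwise the 2 largest), and the nearest gene to each member; NINJA, ARF6, ARF7, ARF19 and others named outside the rule were chosen after their values were seen. Gene names and sequences came from RefSeq (TAIR10.1). On the nuclear chromosomes 23791 rows had a locus of their own and an identifier found in RefSeq. All of them overlapped the RefSeq gene of that identifier, and 43.2% shared its start or end. Coding sequences, from the transcript with the longest coding part, were aligned with MAFFT 7.526. Calculations in Python 3.11.15 were tested on simulated data. Alternatives changed the pseudocount (0.1, 1, 5), centring, a filter on mean FPKM (1, 5) and the q threshold (0.01, 0.10).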

Additional observations from a re-analysis of the deposited data

How the results depend on the processing

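Of the 9 alternatives that were run, the 3 pseudocounts and 2 centrings carry the deposited q-values, so calls could change only under the 2 filters and 2 q thresholds, and directions only under the centrings. Where they could change, the calls and directions of the 5 members did not, with 1 called lower and 0 higher. The log2 change of TPR3 ran from -2.50 as deposited to -1.43 with a pseudocount of 5, and its q was 0.000887 when only genes with a mean of at least 5 FPKM were adjusted. Centring on the median of all tested genes adds the same amount to every change, so it turns any median between -0.17 and 0 by construction, and it gave 0.11 for the Mediator list and 0.13 for the abscisic acid, brassinosteroid and strigolactone partners. Centring within 20 bins of expression gave 0.23 and 0.25 for the same lists, 0.029 for the LEUNIG and SEUSS list and -0.067 for the ERF and zinc finger list; the cause was not tested. At q under 0.01, 841 genes were called higher and 868 lower, against 1586 and 1945 at 0.05, and Aux/IAA calls lower were 3 in place of 5. That threshold left 1 of 3 NINJA and JAZ calls higher and 3 of 5 root cap markers, and 0 of the JAZ5, BES1, AZF3, ZAT10 and endodermis marker calls. Nor did PAN (q = 0.0386), the stele marker CVP2 or the root hair marker EXPA18 pass it. At q under 0.10 the Aux/IAA calls were 5 higher and 9 lower. Of the other genes named above, LUG, LUH, AT2G34140, AT2G37750, ARF6 and ARF19 passed, as did further listed genes that are not named. With the filter at 5 FPKM, 4 activating ARFs were lower in place of 2, the LEUNIG and SEUSS list had 1 lower, and 1 stele marker was lower in place of 3, with fewer genes tested. No paired analysis was possible because the table holds 1 pooled value per genotype, and leaving out single libraries was not run for the same reason. Levels near the floor of detection, such as those of JAZ4, are limited by a depth that is unknown.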
